A study of Mus musculus with 12 samples.

Results

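The genes described here encode the proteins of the cytoplasmic ribosome and were chosen by name alone, as all genes of the deposited table whose symbol has the form Rpl or Rps plus a number and at most 1 further letter, together with Rplp0, Rplp1 and Rplp2. The rule found 80 of 25965 genes, 49 of the large and 31 of the small subunit. Of these, 79 passed the filter on low values and were tested among 14063 genes. Rpl3l, the muscle-restricted paralogue of Rpl3, had 0 to 23 reads a library and did not pass. The name rule misses 7 tested ribosomal protein and related genes that carry other symbols, among them Rpsa and Fau.

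RNA was sequenced from 12 cultures of male C57BL/6 mouse embryonic stem (ES) cells, 2 libraries in each of 6 groups. Cells with floxed alleles (Smchd1 fl/fl) and cells deleted for the gene (Smchd1 del/del) were each sampled 3 times, on day 1, day 5 and day 8 of differentiation towards neuromesodermal progenitors, the bipotent cells that supply spinal cord and paraxial mesoderm. Each line came from a single blastocyst and was divided, so line 1 and line 3 both appear in every group and each del/del culture has its fl/fl counterpart. The deletion was made with MSCV-Cre-puro, a retrovirus carrying Cre, followed by puromycin, whereas the fl/fl controls were neither transduced nor selected. Deletion, transduction and selection therefore cannot be told apart in any comparison of genotypes. All groups were derived in 2i+LIF and weaned into serum+LIF. For differentiation LIF was removed and Fgf2, a Gsk3 inhibitor and Gdf11 were added in turn. Day 1 cells were undifferentiated, day 5 cells were taken after Wnt activation by the inhibitor, and day 8 cells after Gdf11. The titles call the first sampling day 1, the name kept below, whereas the protocol counts those undifferentiated cells as day 0. With 2 libraries a group, p-values rest on the spread between 2 lines and on variances shared across all 12 libraries.

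A cytoplasmic ribosome is built of rRNAs and a single copy of most of its proteins, so cells make these proteins in near-equal amounts, and their mRNAs are classically among the most abundant of growing cells. Most of the mRNAs begin with a C followed by a run of pyrimidines, the 5′ terminal oligopyrimidine (TOP) motif, through which mTORC1 signalling and the RNA-binding protein Larp1 set how well they are translated. Transcription of the genes and of rRNA is raised by Myc proteins, which are high in ES cells. A few members have autosomal paralogues, such as Rpl10l and Rpl39l, which are known for high expression in the testis, where they stand in for the X-linked Rpl10 and Rpl39.

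RefSeq start-site sequences (GRCm38.p6, the same assembly as the mm10 of the files) were found for 60 of the 80 genes. They are shown for the 9 members that passed a test below and for Rpl39 and Rpl10, the X-linked counterparts of the leading 2. Each line holds 25 bases before the start site and 25 from it onwards on the coding strand. Capitals mark the longest run of C and T that reaches into the 10 bases on either side of the start. Part of a run may lie farther away, and a run need not include the start base.
Rpl39l, chr16:10170203-10170252, plus strand: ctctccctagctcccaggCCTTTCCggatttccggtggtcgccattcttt
Rpl39, chrX:37085198-37085247, minus strand: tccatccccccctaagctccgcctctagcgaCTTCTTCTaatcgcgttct
Rpl10l, chr12:66284377-66284426, minus strand: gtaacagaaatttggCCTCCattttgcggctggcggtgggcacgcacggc
Rpl10, chrX:74270791-74270840, plus strand: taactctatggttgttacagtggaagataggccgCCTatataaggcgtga
Rpl15, chr14:18270962-18271011, minus strand: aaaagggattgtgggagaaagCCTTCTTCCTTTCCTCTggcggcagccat
Rpl31, chr1:39367826-39367875, plus strand: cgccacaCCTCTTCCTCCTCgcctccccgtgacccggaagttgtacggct
Rps12, chr10:23787185-23787234, minus strand: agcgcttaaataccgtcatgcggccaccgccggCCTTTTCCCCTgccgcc
Rpl5, chr5:107900503-107900552, plus strand: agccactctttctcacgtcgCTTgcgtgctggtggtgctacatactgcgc
Rps28, chr17:33824538-33824587, minus strand: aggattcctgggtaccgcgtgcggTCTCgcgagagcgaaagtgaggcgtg
Rpl24, chr16:55966250-55966299, plus strand: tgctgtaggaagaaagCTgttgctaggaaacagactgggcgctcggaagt
Rpl11, chr4:136053369-136053418, minus strand: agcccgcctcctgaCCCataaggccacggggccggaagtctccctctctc

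The run was 17 bases in Rpl15, 13 in Rpl31, 11 in Rps12 and 8 in Rpl39, and 2 to 7 bases in the other 7 sequences. A run of at least 8 bases was present in 26 of the 60 members (43.3%), against 13.9% of the 27025 genes of the RefSeq table. The start base was C in 20 of the 60 members (33.3%), against 16.2% of all genes. Among the sequences shown it was C or T in Rpl39, Rpl15, Rpl31 and Rps28, and neither in the rest, Rps12 included. The ETS-family motif CCGGAAG, searched on both strands of the 300 bases from 250 before to 50 after the start, was present in 24 of 60 members (40.0%) and in 9.12% of all genes, and among the sequences shown in Rpl39l, Rpl39, Rpl15, Rpl31 and Rpl11. The TATA motif TATAAA, searched in the same way, was present in 5 members (8.33%) and in 14.2% of all genes. The members that changed thus included genes with and without a long run. A RefSeq start need not be the one these cells use, and a match describes letters only.

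The 80 genes lie on 19 chromosomes, with 14 on chromosome 7 and 4 on the X chromosome (Rpl10, Rpl39, Rps4x and Rpl36a). Ribosomal protein genes have many processed pseudogenes, and 77 of the 80 shared at least one 50-base stretch of their transcripts with a transcript of another annotated gene. The median member shared 47.4% of such stretches. In 28 members the share was 60% or more, and the labels and notes do not say how reads from shared stretches were assigned, so the read numbers of these members are uncertain. Rpl39l and Rpl3l shared none, Rpl10l 7.60% and Rps3 2.96%. In 13 members more than 10% of the exon sequence overlapped another gene.

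Gene reads (reads within the genes of the table) numbered 1509642 to 8670941 a library, and the shallowest library was fl/fl day 8 of line 3. Smchd1 itself had 1212 and 1495 reads in the fl/fl libraries of day 1, where del/del had 197 and 271. On day 5 fl/fl had 366 and 919 reads of it, and del/del had 102 and 104. On day 8 fl/fl had 728 and, in the shallowest library, 111, and del/del had 161 and 140. Of the neuromesodermal markers T, Nkx1-2, Cdx1, Cdx2, Cdx4, Fgf8 and Sox2, all but Sox2 rose from day 1 to day 5 in both genotypes, and by day 8 Wnt3a was at 0 in both fl/fl libraries. Of 9 pluripotency markers, 6 fell by day 5 in fl/fl and 7 in del/del.

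The members took little of each library. Together they held 0.475 to 1.10% of gene reads. The median member had 311 reads per kb of exon, averaged over the libraries, against 334 for the median of 76 mitochondrial ribosomal protein genes, 837 for 29 abundant non-ribosomal genes fixed as a comparison list and 83.2 for all tested genes. On this per-length scale dense members included Rpl4 (1803 reads per kb), Rpl8 (1741), Rpl13a (1646) and Rps21 (1554). Rpl4 lines the tunnel through which the new protein leaves. The sparsest tested members were Rps13 (40.0 reads per kb), Rpl9 (51.3), Rps15a (68.9) and Rpl28 (75.2). Exon length is the union of all GENCODE basic exons, which long variants inflate, as in Rps15a with 5395 bases. Proteins needed in near-equal numbers thus had mRNA read densities from 40.0 reads per kb in Rps13 to 2289 in the densest member, one of the small subunit. Rpl4, at 1803, was the densest of the large subunit. Across the 79 members the shared 50-base share and read density had a Spearman rho of -0.19, a description with the same 12 libraries behind every point.

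The reads of the members followed library depth weakly, and the densest ones most weakly. Gene reads differed 5.74-fold between the deepest and the shallowest library. Rplp0, a stalk protein often used as a reference transcript, had 1075, 1121, 1151 and 1202 reads at day 1 (fl/fl line 1 and line 3, then del/del line 1 and line 3), 1032, 1089, 1005 and 984 at day 5 and 924, 826, 998 and 1063 at day 8 in the same order. Its reads therefore stayed within 1.46-fold, and Rplp1, another stalk protein, had 444 to 709. At the other end, Rps6, the substrate of the S6 kinases, had 8 to 259 reads and Rps13 had 5 to 94. Ranked by reads per kb, the 79 members were divided into 26 sparse (40.0 to 207), 26 middle (219 to 385) and 27 dense genes (394 and above). The ratio of the highest to the lowest library had a median of 2.37 in the dense, 5.11 in the middle and 9.58 in the sparse members, against 9.45 over all tested genes.

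Other lists differed in the same respect. Genes outside the lists with at least the members' lower-quartile density had a median ratio of 7.74 (3867 genes with a ratio), mitochondrial ribosomal protein genes 9.09, elongation factors and other TOP mRNAs 3.02 and the abundant non-ribosomal genes 2.69. In the shallowest library the total of gene reads was 25.3% of that in fl/fl day 8 of line 1, but the median member kept 44.0% of its reads, the dense members 63.7% and the sparse ones 30.9%. The median was 24.0% for mitochondrial ribosomal proteins, 52.0% for elongation factors and TOP mRNAs and 51.0% for the abundant genes. It was 60.7% in the 15 tested members with under 20% shared stretches and 36.3% in the 28 with 60% or more.

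**Figure D1:**
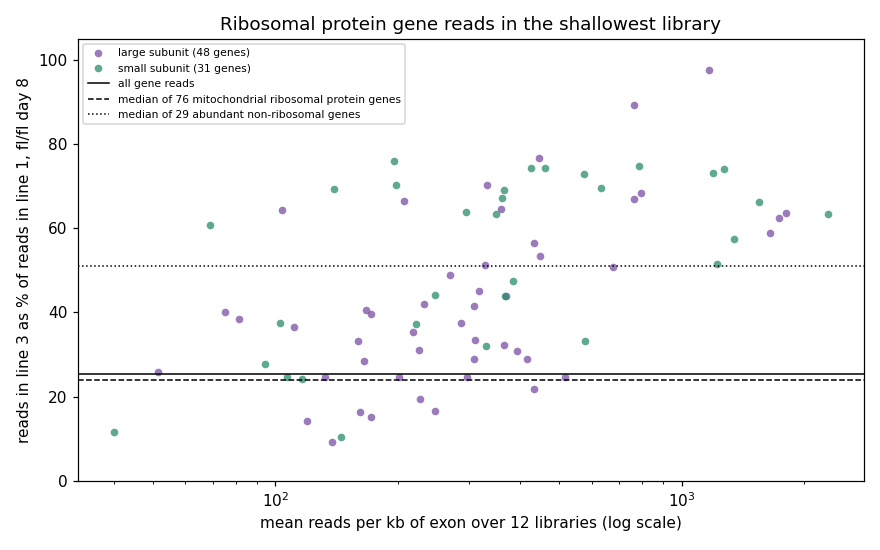
Reads of each of 79 ribosomal protein genes in fl/fl day 8 line 3, as a percentage of the reads in fl/fl day 8 line 1, against mean reads per kb of exon over the 12 libraries (log axis); each point is 1 gene, purple for the large and green for the small subunit, and the horizontal lines give all gene reads (25.3%) and the medians of mitochondrial ribosomal protein genes (24.0%) and abundant genes (51.0%). Most dense members lie well above the line of all gene reads, and the sparse ones scatter around it.

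From here on, a level is the log2 of the RPM, the reads scaled to a fixed library total, with each library rescaled so that its median gene sits at the same place, and a difference is relative to the median gene. On that scale the median member was at 3.39 and 3.36 in fl/fl at day 1 (line 1, then line 3) and at 3.45 and 3.41 in del/del. At day 5 it was at 3.28 and 2.87 in fl/fl and at 3.20 and 3.74 in del/del. At day 8 it was at 2.80 and 3.54 in fl/fl and at 2.78 and 2.85 in del/del. The 2 lines lay close together at day 1 and in del/del at day 8, and parted in the other 3 groups.

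A pair of libraries stood apart by high levels of the members, and they did so in different ways. In del/del day 5 of line 3, 75 of 79 members were above line 1, by a median of 0.61. That library had 83.5% of the gene reads of its line 1 counterpart, and yet 63 of the 79 members had more reads in it. Its members lay above their 12-library means by about the same amount at every density: by a median of 0.66 in the sparse, 0.59 in the middle and 0.58 in the dense members. In fl/fl day 8 of line 3, 70 of 79 members were above line 1, by a median of 0.92, but there the deviation ran with density, from -0.23 in the sparse over 0.41 in the middle to 1.24 in the dense members. No member had more reads there than in line 1. Of the 79 members, 34 had their highest level in the first of these libraries and 33 in the second. The abundant non-ribosomal genes deviated by a median of 0.34 and 1.03 in the same 2 libraries, elongation factors and TOP mRNAs by 0.38 and 0.94, and mitochondrial ribosomal proteins by 0.27 and -0.26. Depth and the high levels in fl/fl day 8 of line 3 cannot be told apart. The comparisons that use these libraries are given with and without them, a choice made after their high levels were seen. Leaving out a high library lowers the median member of its group by construction. Calls gained without the pair therefore cannot be read as independent findings. Without them, del/del at day 5 and fl/fl at day 8 have 1 library each, which is assumed to vary like the other groups, and 14020 genes were tested. Another library, fl/fl day 5 of line 3, was low: 10 of 79 members were above line 1, with a median difference of -0.41. It had 174% of the gene reads of its line 1 counterpart and 125% of the member reads. That library stayed in the fits without the pair. Across fits that left out 1 library, the fl/fl median from day 1 to day 5 ran from -0.40 to -0.08.

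**Figure D2:**
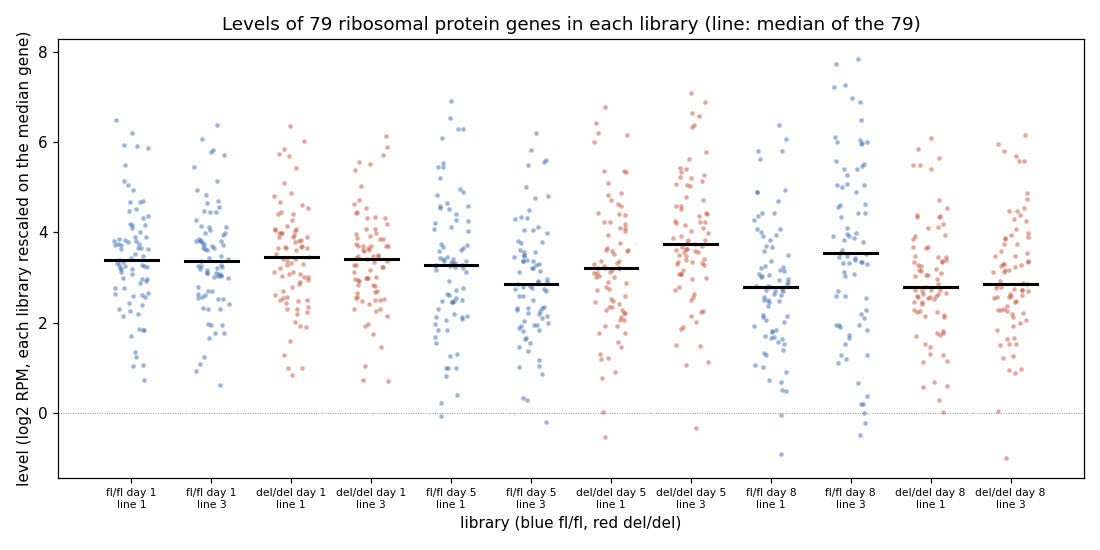
Level (log2 RPM, each library rescaled on the median gene) of 79 ribosomal protein genes in each of the 12 libraries; points are genes, blue for fl/fl and red for del/del, and the black line is the median of the 79. The medians are highest in del/del day 5 line 3 (3.74) and fl/fl day 8 line 3 (3.54), and the points of the latter are the most widely spread.

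The first question was how the ribosomal protein mRNAs changed as ES cells left the undifferentiated state. From day 1 to day 5 few members passed the test, and with all 12 libraries in the fit those that passed fell. The differences were negative in 68 of 79 members in fl/fl, and positive in 52 and negative in 27 in del/del. In fl/fl, 6 of 79 members fell and none rose, where 40.9% of all tested genes changed and 17.9% fell. In del/del, 4 fell and none rose, where 39.5% changed and 18.3% fell. Whether members were called less often than other genes was not tested. For fits that left out 1 library, here and below, the share of all genes called is not given. Member counts in those fits therefore cannot be read as particular to the members. Their lines differed by a median of 0.42 in fl/fl and 0.62 in del/del at day 5, without regard to sign, against 0.23 and 0.39 over all genes. The count in fl/fl was 1 without either fl/fl day 1 library or without fl/fl day 5 of line 3, 2 without fl/fl day 5 of line 1, 3 without del/del day 1 of line 1, 11 without either fl/fl day 8 library and 13 without either del/del day 5 library. In del/del it was 2 without del/del day 1 of line 1 and 10, all lower, without del/del day 5 of line 3. Without del/del day 5 of line 1, 1 member was called higher and 3 lower. Without fl/fl day 8 of line 1, 13 members were called higher and 5 lower, and without fl/fl day 8 of line 3, 12 higher and 5 lower, so the direction of the calls in del/del turns on libraries outside that comparison. The median difference was -0.25 in fl/fl (-0.63 on the deposited scale, on which the median gene itself moved by -0.42) and 0.16 in del/del (-0.74 on the deposited scale, with the median gene at -0.88, so the sign of the median member turns with the scale).

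Rpl39l and Rpl10l, the autosomal paralogues, led in both genotypes. Rpl39l (chromosome 16), a variant of the small exit-tunnel protein Rpl39, had 361 and 351 reads in fl/fl at day 1, 92 and 147 at day 5 and 170 and 42 at day 8. In del/del it had 626 and 504, then 135 and 133, then 234 and 166. Its level fell from 3.48 and 3.27 to 2.05 and 1.88 in fl/fl and from 3.99 and 3.47 to 2.45 and 2.73 in del/del, with no overlap between the days in either genotype. The difference was -1.40 ± 0.23 (SE, n = 2 against 2, adjusted p = 0.000875 by limma) in fl/fl and -1.14 ± 0.23 (adjusted p = 0.00316) in del/del. It remained past the threshold in 12 of 12 fits that left out 1 library, in both genotypes.

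Rpl10l (chromosome 12), an intronless copy of Rpl10, a protein that joins the large subunit late in its assembly, had 324 and 342 reads in fl/fl at day 1, 55 and 110 at day 5 and 42 and 17 at day 8. In del/del it had 502 and 494, then 73 and 16, then 52 and 20. The level fell by 1.89 ± 0.57 in fl/fl (adjusted p = 0.0227 by limma) and by 2.93 ± 0.57 in del/del (adjusted p = 0.00235). The del/del lines were far apart at day 5, at 1.57 in line 1 and -0.32 in line 3. Without the 2 libraries that stood apart the difference in del/del was -1.97 (adjusted p = 0.00361). In fl/fl the call held in 8 of 12 fits that left out 1 library, with adjusted p up to 0.102. No difference between the genotypes was shown for either fall: the interaction of day 5 and day 1 was 0.27 ± 0.33 for Rpl39l and -1.04 ± 0.81 for Rpl10l (adjusted p = 0.962 for both by limma), values whose errors leave room for sizeable differences.

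The X-linked counterparts did not pass the test. Rpl39 had a level of 2.63 and 2.54 at day 1 and 2.55 and 2.11 at day 5 in fl/fl, a difference of -0.25 ± 0.45 (adjusted p = 0.684 by limma), and in del/del 2.50 and 2.50 against 2.72 and 3.74, a difference of 0.73 ± 0.45 (adjusted p = 0.226). Rpl10, at 2.20 and 2.31 in fl/fl at day 1 and 1.83 and 1.81 at day 5, gave -0.43 ± 0.39 (adjusted p = 0.398) and -0.34 ± 0.39 in del/del (adjusted p = 0.511 by limma). Rpl10 shares 85.4% of its 50-base stretches with other genes, so its reads are less certain than those of Rpl10l. Whether the paralogues changed differently from their counterparts was not tested. Rpl3l, a further tissue-restricted paralogue, had 16, 19, 23 and 18 reads in the 4 day 1 libraries and 0 to 9 in the 8 later ones.

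**Figure D3:**
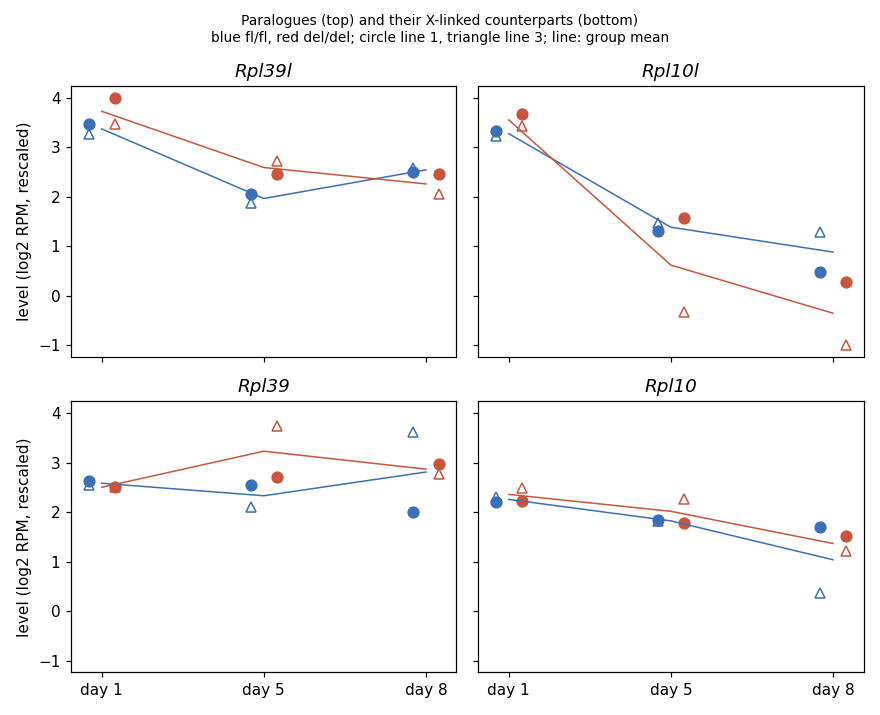
Level (log2 RPM, rescaled on the median gene) of Rpl39l and Rpl10l (top) and of their X-linked counterparts Rpl39 and Rpl10 (bottom) at day 1, day 5 and day 8; blue is fl/fl, red del/del, circles line 1, triangles line 3, and lines join group means. Both paralogues lie above 3.2 in all 4 day 1 libraries and below 2.8 in all 8 later ones, while Rpl39 has no such step and its 2 highest points, 3.74 and 3.61, are the line 3 libraries of del/del day 5 and fl/fl day 8.

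The other members that fell in fl/fl were constitutive proteins of the ribosome. Rpl15, a core protein of the large subunit, had 581 and 630 reads at day 1 and 222 and 354 at day 5, and its level fell from 4.16 and 4.11 to 3.32 and 3.15 (-0.90 ± 0.24, adjusted p = 0.0116 by limma). Rpl5, which with Rpl11 and 5S rRNA forms the particle that can inhibit Mdm2 and so stabilise p53, fell from 3.39 and 3.44 to 2.50 and 2.58 (-0.87 ± 0.29, adjusted p = 0.0337). Rpl31, at the rim of the exit tunnel, went from 3.23 and 3.22 to 2.48 and 2.33 (-0.82 ± 0.29, adjusted p = 0.0432; 0.0576 with line as a block). Rps12, a protein of the small subunit's beak, went from 259 and 310 reads to 87 and 195, at levels of 1.97 and 2.29 on day 5 (-0.91 ± 0.33, adjusted p = 0.0474). In each of these genes both day 5 libraries lay below both day 1 libraries. Rpl5, Rps12 and Rpl31 share 93.8%, 83.55% and 70% of their 50-base stretches with other genes, so their reads are uncertain. In Rpl15 the share is 30.2%. Another gene overlaps 46.6% of the exon sequence of Rpl5 and 28.0% of that of Rpl31. Calls for Rpl31 and Rps12 held in 4 of 12 fits without 1 library, with adjusted p up to 0.170 and 0.205, and those for Rpl5 in 7 and Rpl15 in 9.

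In del/del, Rps28, a small protein near the mRNA exit, had levels of 4.07 and 3.91 at day 1 and 3.20 and 3.07 at day 5 (-0.85 ± 0.21, adjusted p = 0.00847 by limma). Rpl24, at the bridge between the subunits, went from 3.90 and 3.71 to 2.87 and 3.35 (-0.69 ± 0.18, adjusted p = 0.0121 by limma). Rpl24 shares 81.7% of its 50-base stretches with other genes, so its reads are uncertain, and Rps28 shares 55.4%. Another gene overlaps 71.5% of the exon sequence of Rpl24. In fl/fl the same genes gave -0.49 ± 0.21 (Rps28, adjusted p = 0.0871) and -0.43 ± 0.18 (Rpl24, adjusted p = 0.0810). Conversely, Rpl15, Rpl5, Rpl31 and Rps12 gave -0.30, -0.05, -0.25 and -0.24 in del/del, with adjusted p of 0.334 to 0.899. No member passed the interaction of day 5 and day 1 (limma; 0 at an unadjusted p under 0.05, 0 by voom; 0.0% of all genes; 2 higher without del/del day 5 of line 1), so no difference between the genotypes was shown for these genes. The members' median in that interaction was 0.52 (-0.01 on the deposited scale, with the median gene at -0.55), and without the 2 libraries that stood apart it was 0.20 and none passed.

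Without the 2 libraries that stood apart, more members passed and nearly all fell. Those libraries were picked after their high member levels were seen, and the low fl/fl library was kept. Leaving out the high del/del library lowers the del/del median by construction. The del/del calls gained this way, and their overlap with fl/fl, therefore cannot be read as findings. In fl/fl 23 members fell and none rose, the 6 above included, where 28.5% of all genes fell. In del/del 17 fell, the 4 above included, and 1 rose, where 25.5% of all genes fell. Members that fell in both genotypes were Rpl10l, Rpl39l, Rpl5, Rpl11, Rpl15, Rpl21, Rpl24, Rpl27, Rpl27a, Rpl31, Rpl36a, Rps6, Rps12, Rps23, Rps27a and Rps28. Out of 79 members, both counts of falls lie near or below the shares of all genes, so they are not particular to the members. The overlap of the genotypes over all genes is not given, so whether that of the members is unusual was not tested. In fl/fl the libraries compared are the same in both fits, and the median was -0.22. The standard errors were smaller without the 2 libraries. That of Rpl39l was 0.20 in place of 0.23, Rpl15 0.12 in place of 0.24, Rpl5 0.13 in place of 0.29 and Rps12 0.17 in place of 0.33. The del/del median was -0.14, against 0.16 with the 2 libraries, a change of sign. When each library was instead centred on its own median member, only Rpl10l (-3.12, adjusted p = 0.00482) and Rpl39l (-1.32, adjusted p = 0.0314) in del/del still passed by limma, and Rpl39l in fl/fl came to -1.14 (adjusted p = 0.0551).

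Many genes that make ribosomes or regulate them fell by day 5. Of 44 tested ribosome biogenesis genes, 26 fell in fl/fl (median -0.52) and 21 in del/del (median -0.41), and none rose. The smallest p-values were those of Polr1b, a subunit of RNA polymerase I, Wdr75 and Ddx21 in fl/fl, and in del/del of Rrn3, an initiation factor of that polymerase, Rrp12 and Wdr75. Of 20 mTORC1 and Myc regulators 8 fell in each genotype. Mycn, a Myc gene of ES cells and neural progenitors, went from 1752 and 2109 reads to 209 and 304 in fl/fl (-2.72 ± 0.35, adjusted p = 0.000174 by limma) and from 2082 and 2378 to 215 and 411 in del/del (-1.97 ± 0.35, adjusted p = 0.0013). Myc fell by 1.05 ± 0.19 in fl/fl and 1.00 ± 0.19 in del/del, and Larp1, the TOP-binding protein, was also among those that fell. Of 76 mitochondrial ribosomal protein genes 17 fell and 1 rose in fl/fl, and 7 fell and 2 rose in del/del. Of 12 elongation factor and TOP genes, Hnrnpa1 alone fell in both genotypes. Of 34 initiation factors 3 changed in fl/fl, with 1 higher, and none in del/del (limma; 3 at an unadjusted p under 0.05). None of the 7 ribosomal protein genes with other symbols passed in fl/fl or del/del (limma; 1 and 0 at an unadjusted p under 0.05). These lists were chosen with earlier results of the same data known. Their counts stand beside 17.9% and 18.3% of all genes that fell.

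Markers of several cell types changed over the same interval. The summed reads of 9 pluripotency markers lay between 1064 and 1177 RPM of gene reads in fl/fl at day 1 and between 544 and 546 at day 5, and in del/del between 972 and 1110 and then between 393 and 525. The 8 fibroblast markers summed to 14.7 to 33.5 in fl/fl at day 1 and 57.6 to 62.4 at day 5, and to 21.1 to 24.9 and 114 to 195 in del/del, with Lum at 0 at day 5 in both genotypes. The 8 trophoblast markers, of which Cdx2 is also a neuromesodermal marker, summed to 359 to 373 and then 1095 to 1436 in fl/fl and to 292 to 369 and then 1082 to 1326 in del/del, and Cdx2, Krt7, Krt8 and Krt18 rose in both. The 7 extraembryonic endoderm markers summed to 6.70 to 9.11 and then 42.4 to 236 in fl/fl, where 3 of 5 tested rose, and to 10.6 to 11.1 and then 43.1 to 78.2 in del/del, where 2 rose. The 6 endothelium and blood markers summed to 119.5 to 129 and then 42.7 to 76.5 in fl/fl and to 134 to 148 and then 24.3 to 62.9 in del/del, where 2 of 4 tested rose and 2 fell in each genotype. In bulk RNA, fewer cells of a type and less RNA per cell cannot be told apart, and the part of these markers in the changes of the members was not tested.

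**Figure D4:**
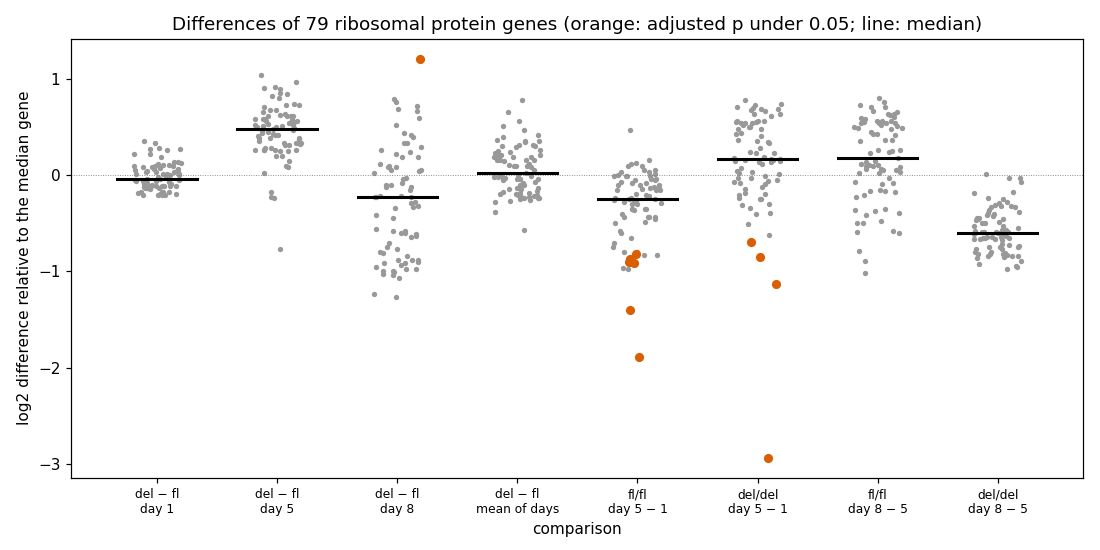
Log2 difference relative to the median gene of 79 ribosomal protein genes in 8 comparisons (del/del minus fl/fl on each of the days and averaged, then day 5 minus day 1 and day 8 minus day 5 in each genotype); each point is 1 gene, orange where the adjusted p is under 0.05 (limma), and the black line is the median. The orange points below 0 are the 6 members that fell in fl/fl and the 4 in del/del from day 1 to day 5, and the 1 above 0 is Rpl11 at day 8; on the deposited scale the median is 0.11 rather than -0.04 for del/del minus fl/fl at day 1, 0.65 rather than -0.23 for del/del minus fl/fl at day 8, -0.74 rather than 0.16 for del/del day 5 minus day 1, -0.37 rather than 0.18 for fl/fl day 8 minus day 5 and 0.10 rather than -0.60 for del/del day 8 minus day 5.

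From day 5 to day 8 no member passed the test in either genotype. In fl/fl 0 of 79 passed by limma (4 at an unadjusted p under 0.05, 1 by voom; 6.73% of all genes were called), and the median difference was 0.18 (-0.37 on the deposited scale, with the median gene at -0.55). The smallest p-values belonged to Rpl28 (-1.01 ± 0.31, adjusted p = 0.0733 by limma), Rps28 (-0.60 ± 0.21, adjusted p = 0.110) and Rpl39l (0.58 ± 0.23, adjusted p = 0.156). Rpl28, a large-subunit surface protein, had 94 and 183 reads at day 5 and 50 and 20 at day 8. Without the shallowest library the median was -0.24 and 1 member fell, without fl/fl day 8 of line 1 34 rose and 2 fell, and without both libraries that stood apart Rpl28 and Rps28 fell, where 5.83% of all genes fell.

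In del/del 0 of 79 members passed from day 5 to day 8 by limma (14 at an unadjusted p under 0.05, 3 by voom; 11.9% of all genes were called), although 78 of 79 differences were negative, with a median of -0.60 (0.10 on the deposited scale, with the median gene at 0.69). Rpl35 (-0.86 ± 0.26, adjusted p = 0.0574 by limma), Rps28 (-0.65 ± 0.21, adjusted p = 0.0710) and Rpl9 (-0.66 ± 0.22, adjusted p = 0.0716) had the smallest p-values. Rpl35, at the mouth of the exit tunnel, had levels of 2.34 and 3.08 at day 5 and 1.77 and 1.93 at day 8. Without del/del day 5 of line 3 the median was -0.32 and 1 member fell, without del/del day 5 of line 1 12 fell, without either fl/fl day 8 library 29 fell, and without both libraries that stood apart 61 of 79 differences were negative and 13 members fell, where 14.4% of all genes fell. They included Rpl10l, Rpl4, Rpl6, Rpl14, Rpl32, Rplp0, Rplp2, Rps2, Rps15a, Rps19 and Rps28. Their count out of 79 lies near that share of all genes, so it is not particular to the members. Of the 44 ribosome biogenesis genes 8 fell in fl/fl and 19 in del/del over this interval, with all 12 libraries in the fit. Fibroblast markers, with Lum now detected, summed to 262 and 1096 RPM of gene reads in the fl/fl and to 2378 to 2978 in the del/del libraries at day 8. Their part was not tested.

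The central question of the design was whether loss of Smchd1, a chromatin protein that keeps genes silent on the inactive X chromosome and at clustered and imprinted loci, altered expression. At day 1 no member passed between del/del and fl/fl by limma (0 at an unadjusted p under 0.05, 0 by voom; 0.00711% of all genes were called). The members' differences ran from -0.21 to 0.36, with a median of -0.04 (0.11 on the deposited scale, with the median gene at 0.15). Rpl39l (0.36 ± 0.23), Rpl28 (0.27 ± 0.31) and Rps23 (0.33 ± 0.44) had the smallest p-values, with an adjusted p of 1.00 for each by limma. The X-linked members Rpl10, Rpl39, Rps4x and Rpl36a had levels of 2.20 and 2.31, 2.63 and 2.54, 3.90 and 3.81, and 1.83 and 1.97 in fl/fl against 2.23 and 2.49, 2.50 and 2.50, 3.70 and 3.65, and 2.20 and 2.15 in del/del, none past the test in these male cells.

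At day 5 no member passed either by limma (10 at an unadjusted p under 0.05, 0 by voom; 0.00711% of all genes), but 75 of 79 differences were positive, with a median of 0.47 (0.10 on the deposited scale, with the median gene at -0.40). In 22 members both del/del libraries lay above both fl/fl libraries, against 14.3% of all genes. Rpl5 was at 2.50 and 2.58 in fl/fl and at 2.80 and 3.92 in del/del (0.82 ± 0.29, adjusted p = 0.597 by limma). Rpl39l (0.63 ± 0.23) and the X-linked Rpl36a (1.04 ± 0.40) had the same adjusted p. The size of the shift depended on single libraries: without del/del day 5 of line 3 the median was 0.19, without fl/fl day 5 of line 3 it was 0.22, and without del/del day 5 of line 1 it was 0.77 and 12 members passed, all higher. Without both libraries that stood apart it was 0.19 and none passed.

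At day 8 a single member passed. Rpl11, the partner of Rpl5 in the 5S particle, had 73 and 11 reads in fl/fl and 191 and 181 in del/del, and its level was 1.28 and 0.66 against 2.16 and 2.19. It was 1.21 ± 0.36 higher in del/del (adjusted p = 0.0478 by limma), among 15.0% of all genes called and 7.95% called higher. The call held in 3 of 12 fits that left out 1 library and failed with line as a block (adjusted p = 0.0638). Without the 2 libraries that stood apart it was 0.89 ± 0.23 (adjusted p = 0.0250). Rpl11 shares 62.2% of its 50-base stretches with other genes, and its 11 reads in the shallowest library allow only a coarse value. At day 5 its levels were 1.55 and 1.38 in fl/fl and 1.77 and 2.96 in del/del.

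The other members at day 8 divided by read density. The median difference of all 79 was -0.23 (0.65 on the deposited scale, with the median gene at 0.90), and it was 0.09 in the sparse, -0.22 in the middle and -0.81 in the dense members, where 23 of 27 were negative. In 25 of the 79 members both del/del libraries lay below both fl/fl libraries. That is close to the 30.9% found over all genes, so it is not particular to the members. Rplp0 was at 4.94 and 6.89 in fl/fl against 4.55 and 4.74 in del/del (-1.27 ± 0.47, adjusted p = 0.0858 by limma), and Rpl8, which lies at the peptidyl transferase centre, at 5.79 and 7.22 against 5.49 and 5.57 (-0.97 ± 0.36, adjusted p = 0.0870). In both genes the high fl/fl value was that of the shallowest library. Without that library the median member differed by 0.09 and no member passed by limma. Without fl/fl day 8 of line 1 the shallowest library alone stood for fl/fl. Over all fits that left out 1 library, the median difference ran from -0.75 to 0.09. Leaving out the high fl/fl library raises the median difference by construction, so calls gained without it cannot be read as findings. Without both libraries that stood apart 7 members passed, all higher in del/del: Rps27a, Rpl11, Rpl39, Rpl22, Rpl15, Rpl36a and Rpl12. In that fit 18.6% of all genes were called. At that day 7 of 8 fibroblast markers in del/del had risen since day 5 and 4 of 8 in fl/fl. Trophoblast markers summed to 981 to 2373 RPM of gene reads in fl/fl and 462 to 631 in del/del, with Krt7, Krt8 and Krt18 lower in del/del and Elf5 at 0 there. Endothelium and blood markers summed to 96.2 to 148 in fl/fl, with Hbb-bh1 at 0, and to 16.5 to 43.8 in del/del, with Gata1 at 0 and Tie1 lower. Extraembryonic endoderm markers overlapped, at 161 to 344 in fl/fl and 55.8 to 194 in del/del. The part of all these markers in the differences was not tested.

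Averaged over the 3 days no member passed between the genotypes by limma (6 at an unadjusted p under 0.05, 0 by voom; 0.107% of all genes were called). Without del/del day 5 of line 1 the count was 12, and without fl/fl day 8 of line 1 it was 20, of which 18 were lower. Without the 2 libraries that stood apart none passed, with 54 of 79 differences positive and a median of 0.06, where 2.80% of all genes were called. Rpl11 came closest (0.77 ± 0.21, adjusted p = 0.0844), followed by Rpl36a (0.66 ± 0.23, adjusted p = 0.122) and Rpl15 (0.35 ± 0.14, adjusted p = 0.152). The genotype difference was lower at day 8 than at day 5 in 70 of 79 members, with a median of -0.77 (0.48 on the deposited scale, with the median gene at 1.29), yet none passed the interaction by limma (25 at an unadjusted p under 0.05, 0 by voom; 0.00711% of all genes), except that 37 were lower without fl/fl day 8 of line 1. Rpl19 (-1.14 ± 0.39, adjusted p = 0.334 by limma) and Rpl39l (-0.91 ± 0.33, adjusted p = 0.340) were among those with the smallest p-values. The 2 libraries that stood apart push this value the same way, and without them the median was -0.11 and none passed, where 1.73% of all genes were called.

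No gene of the other paralogue pairs passed the test from day 1 to day 5 with all 12 libraries in the fit, while Rpl36a was among those that fell in both genotypes without the 2 libraries that stood apart. In fl/fl, Rpl22 and Rpl22l1 changed by -0.24 ± 0.36 and -0.20 ± 0.38, Rps27 and Rps27l by -0.49 ± 0.46 and -0.14 ± 0.33, Rpl7 and Rpl7l1 by -0.13 ± 0.47 and -0.45 ± 0.18, Rpl36a and Rpl36al by -0.97 ± 0.40 and -0.22 ± 0.37, with adjusted p of 0.0676 to 0.849 by limma. The differences within pairs were not tested. Rps27l, a p53-induced variant, had a higher read density than Rps27, at 1223 against 117 reads per kb. Rps27 shares 63.1% of its 50-base stretches with other genes and Rps27l 13.7%. The read number of Rps27 is therefore uncertain, and the densities need not reflect a difference in expression. Rpl38 and Rps19, whose loss is known to cause patterning defects and anaemia, did not pass in the fit of all 12 libraries, although Rpl38 fell in fl/fl without the 2 that stood apart. Their differences were -0.45 ± 0.32 and 0.03 ± 0.28 in fl/fl and 0.15 ± 0.32 and 0.43 ± 0.28 in del/del. Rps4l and Rps27rt were not analysed here.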

How the data were processed

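RNA was measured in 12 libraries, 2 in each of 6 groups. The authors deposited log2 RPM values for 25965 genes, per the labels and file headers. The submitters' processing notes list edgeR, TopHat2 2.0.12, bcl2fastq and the mm10 build, with no role for each; removal of duplicate reads, strandedness and the treatment of multiply mapped reads are not given in the sources used here. Once the log2 is undone, each RPM of a library is a whole multiple of 1 step, within 0.02 reads for 100% of genes (0 reads entered as 0.9). Whole reads were thus recovered. The denominators were 14.9 to 34.0 M reads, with 10.1 to 27.8% in genes. Because this share differs, the libraries were scaled so that the median log ratio of each to the mean library was 0. limma 3.58.1 in R 4.3.3 fitted 6 group means with a mean-variance trend to genes with a log2 value above 0 in at least 2 libraries, with Benjamini-Hochberg adjustment over all 14063 at 0.05. The procedure was tested on simulated data in which the reads of every gene followed library depth. The members follow depth weakly, so that test does not show how reliable the calls for them are. Exon lengths came from the GENCODE M21 basic annotation, shared 50-base stretches from the full set of M21 transcripts, and promoters from RefSeq.

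Members and lists were chosen with earlier results of these data known. Named members are, per comparison, up to 5 largest changes per direction among those called (with fewer than 3, the 3 smallest p), the 5 densest and 5 sparsest, the paralogue pairs, a short set of well-known members and those farthest from the median member. Of each other list up to 3 genes with the smallest p are named. Larp1 and the members called only without the 2 libraries that stood apart were named after their values were seen. The values of some genes are not reported here. Samples of line 1, and of line 3, share a founder, so line pairs them. Deviations of same-line libraries of the 2 genotypes correlated at -0.154 to 0.135 across genes. A block for line, other scalings, filters, weights, voom and leaving out each library were tried.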

Additional observations from a re-analysis of the deposited data

How the results depend on the processing

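On the deposited scale the median gene moved by 0.15, -0.40, 0.90 and 0.22 between genotypes at day 1, day 5, day 8 and over the days, and by 1.29 and -0.55 in the interactions. Scaling on total gene reads moved it by 0.14 at day 8 and 0.18 in the interaction of day 8 and day 5. With no filter the median member was at 0.04 rather than -0.04 between genotypes at day 1, 0.37 rather than -0.23 at day 8, -0.37 rather than 0.16 in del/del from day 1 to day 5 and -0.14 rather than 0.18 in fl/fl from day 5 to day 8. Members called between genotypes at day 8, 1 with the chosen settings, numbered 7 on the deposited scale, 4 with no filter and 0 with quantile scaling, centring on the median member, a filter at log2 above 3, log2(RPM + 1), array weights, voom or the replicate block. From day 1 to day 5 in fl/fl, 6 became 3 on the deposited scale, 10 with quantile scaling, 0 centred on the median member, 22 with array weights, 16 with voom and 23 without the line 3 libraries of del/del day 5 and fl/fl day 8. In del/del, 4 became 9 on the deposited scale, 2 centred and 18 without those libraries. From day 5 to day 8 in fl/fl, 0 became 1 with voom and 2 without those libraries. In del/del, 0 became 5 with quantile scaling, 1 with the read density trend removed, no filter or log2(RPM + 1), 3 with voom and 13 without those libraries, an alternative chosen after seeing the data that also gave 7 at day 8 between genotypes. The cause was not tested. For the other scalings, filters, weights, voom and the block, the share of all genes called is not given. Member counts under those settings therefore cannot be read as particular to the members. The pairing by line (replicate block) left 5 of the 6 calls in fl/fl and changed no other call beside Rpl11 and Rpl31.

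Leaving out 1 library at a time gave 0 to 0 members at day 1 between genotypes, 0 to 12 at day 5, 0 to 39 at day 8, 0 to 20 over the days, 1 to 13 and 2 to 18 from day 1 to day 5 in fl/fl and del/del, 0 to 36 and 0 to 29 from day 5 to day 8, 0 to 37 in the interaction of day 8 and day 5 and 0 to 2 in that of day 5 and day 1. The highest counts came without fl/fl day 8 of line 1 at day 8, over the days, in fl/fl from day 5 to day 8, in the interaction of day 8 and day 5, and in del/del from day 1 to day 5, where 13 members were called higher and 5 lower. Without either fl/fl day 8 library 29 members were called lower in del/del from day 5 to day 8. The shares of all genes called in the fits that left out 1 library are not given, so these counts have no such value beside them. None of the named calls changed sign in the settings run. Reads as low as 5 to 11 a library limit Rps13, Rps6 and Rpl11.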
